A study of Mus musculus with 6 samples.

Results

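The 48 genes described here are annotated to a pathway for the repair of DNA interstrand crosslinks. They are the genes of the deposited count table that carry the pathway term for Fanconi anemia and not the term for DNA replication, and whose counts summed to at least 60 over the 6 libraries. The table holds 17191 genes, of which 51 carry the Fanconi term. The replication term removed Rpa1, Rpa2 and Rpa3, subunits of the protein that coats single-stranded DNA, and the count minimum removed 0 genes. The member closest to that minimum was Rmi2, with a summed count of 128, followed by Poln with 197.

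RNA was sequenced from cells of subcutaneous CT26 tumours, a mouse colorectal carcinoma line, implanted in BALB/c females aged 6 to 8 weeks. The TP-18 group received this compound, for which only the code name is given, orally at 50 mg/kg each day over 3 weeks, and the vehicle group received vehicle, with treatment starting at tumour volumes of 100 to 200 mm3. Each group had 3 libraries, numbered 1, 2 and 3 in the labels, and values for the 3 libraries of a group are given in that order throughout. All 6 libraries came from tumour-bearing animals, with no tumour-free group. The labels differ on the cells: one names sorting for CD11b, F4/80 and CD206, another magnetic selection for CD11b alone, and the sample fields the CT26 line. They do not say whether the 3 libraries of a group come from 3 mice, and p-values therefore cover the spread between libraries only, which may be technical in part.

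Total counts were 17135001 to 17597645 in TP-18 and 16371128 to 17004480 in vehicle libraries. The sort markers were present: Itgam, which encodes CD11b, had 889.8 ± 112 CPM in TP-18 and 1012 ± 272 CPM in vehicle libraries (SD, n = 3 each), Adgre1, which encodes F4/80, had 191 ± 75.7 CPM in TP-18 and 192 ± 97.98 CPM in vehicle libraries, and Mrc1, which encodes CD206, had 776 ± 136 CPM in TP-18 and 977 ± 412 CPM in vehicle libraries. CPM values are counts scaled to the TMM-adjusted library size. Summed over 10 macrophage markers the level was 4264 to 6440.2 CPM in TP-18 and 3683 to 7948 CPM in vehicle libraries. The sums were 288 to 558 CPM in TP-18 and 489.8 to 699 CPM in vehicle libraries for 8 markers of epithelial cells and CT26, 1483 to 1847 CPM in TP-18 and 743 to 1199.5 CPM in vehicle libraries for 8 of fibroblasts and pericytes, and 96.1 to 170.1 CPM in TP-18 and 32.6 to 159.8 CPM in vehicle libraries for 7 of endothelial cells. They were 58.6 to 134 CPM in TP-18 and 55.5 to 228 CPM in vehicle libraries for 7 neutrophil markers, 3.36 to 16.1 CPM in TP-18 and 3.27 to 17.8 CPM in vehicle libraries for 7 of T and NK cells, 2.71 to 8.74 CPM in TP-18 and 1.38 to 3.93 CPM in vehicle libraries for 5 of B cells and 4.94 to 6.39 CPM in TP-18 and 8.43 to 14.3 CPM in vehicle libraries for 7 of dendritic cells. Among these lists 1 gene passed the test described next, the epithelial list's Sox9, which was lower with TP-18. In log2 CPM across genes, the library closest to vehicle 1 was TP-18 3 (Pearson r = 0.970), ahead of TP-18 1 (0.966), vehicle 3 (0.955), vehicle 2 (0.946) and TP-18 2 (0.944).

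An interstrand crosslink joins both strands of the DNA helix and stops the replication fork that meets it. In the Fanconi anemia pathway a core complex of FANC proteins attaches ubiquitin to FANCD2 and FANCI, and the modified pair directs nucleases that cut the crosslink loose from one strand. Translesion polymerases then copy past the remnant, and homologous recombination rebuilds the broken strand. Several of these genes are known to be transcribed mainly in dividing cells around S phase, when the pathway acts. In humans, inherited loss of the pathway causes Fanconi anemia, with bone marrow failure and a high risk of cancer.

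None of the 48 members differed between TP-18 and vehicle at an adjusted p under 0.05 (edgeR's quasi-likelihood test, Benjamini-Hochberg over all 12721 tested genes), and the smallest adjusted p among them was 0.158, for Brca2. Most members nevertheless had higher means with TP-18: 39 of 48 log2 fold changes (TP-18 over vehicle) were positive (81.2%), against 52.6% of all tested genes. The median was 0.33, against 0.02 over all tested genes. Of all tested genes 0.11% passed the threshold, 0.0236% as higher and 0.0865% as lower. At an unadjusted p under 0.05, 12 members were higher (25.0%, against 7.56% of all tested genes) and 0 lower (8.7% of all tested genes). In 12 members every TP-18 library lay above every vehicle library (25.0%, against 11.6% of all tested genes), and in 0 below (11.7%). These counts overlap in 8 genes, Blm, Brca2, Fan1, Fancm, Pms2, Polk, Slx1b and Usp1. DESeq2 called Brca2 (adjusted p = 0.0119) and Fan1 (0.0257), 4.17% of members, where it called 4.45% of all genes.

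The count of 12 members higher at an unadjusted p under 0.05 depended on single libraries and on the scaling. Without TP-18 3 it was 3 (6.25%, against 5.77% of all tested genes), and without vehicle 2 it was 3 (6.25%, against 6.01%), so that the share of members was near that of all genes in both cases. It was 6 without TP-18 1 (12.5%, against 3.78%), 7 without vehicle 3 (14.6%, against 5.24%), 13 without TP-18 2 (27.1%, against 6.77%) and 12 without vehicle 1 (25.0%, against 8.98%). With library totals as scaling it was 20 (41.7%, against 17.3%), and with limma on log2(FPKM + 1) and log2(FPKM + 0.1) it was 21 (43.8%, against 17.8%) and 20 (41.7%, against 17.3%). The count of positive fold changes was 37 to 41 and their median 0.25 to 0.40 over the 6 omissions of a library. With library totals in place of TMM factors the median of all genes was 0.20, a shift of 0.18. That of the members was 0.51. A change of scaling moves all genes by nearly the same amount. The distance of the members from all genes, 0.31 under both scalings, is therefore no test of the scaling. With library totals 71.8% of all genes were positive.

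**Figure D1:**
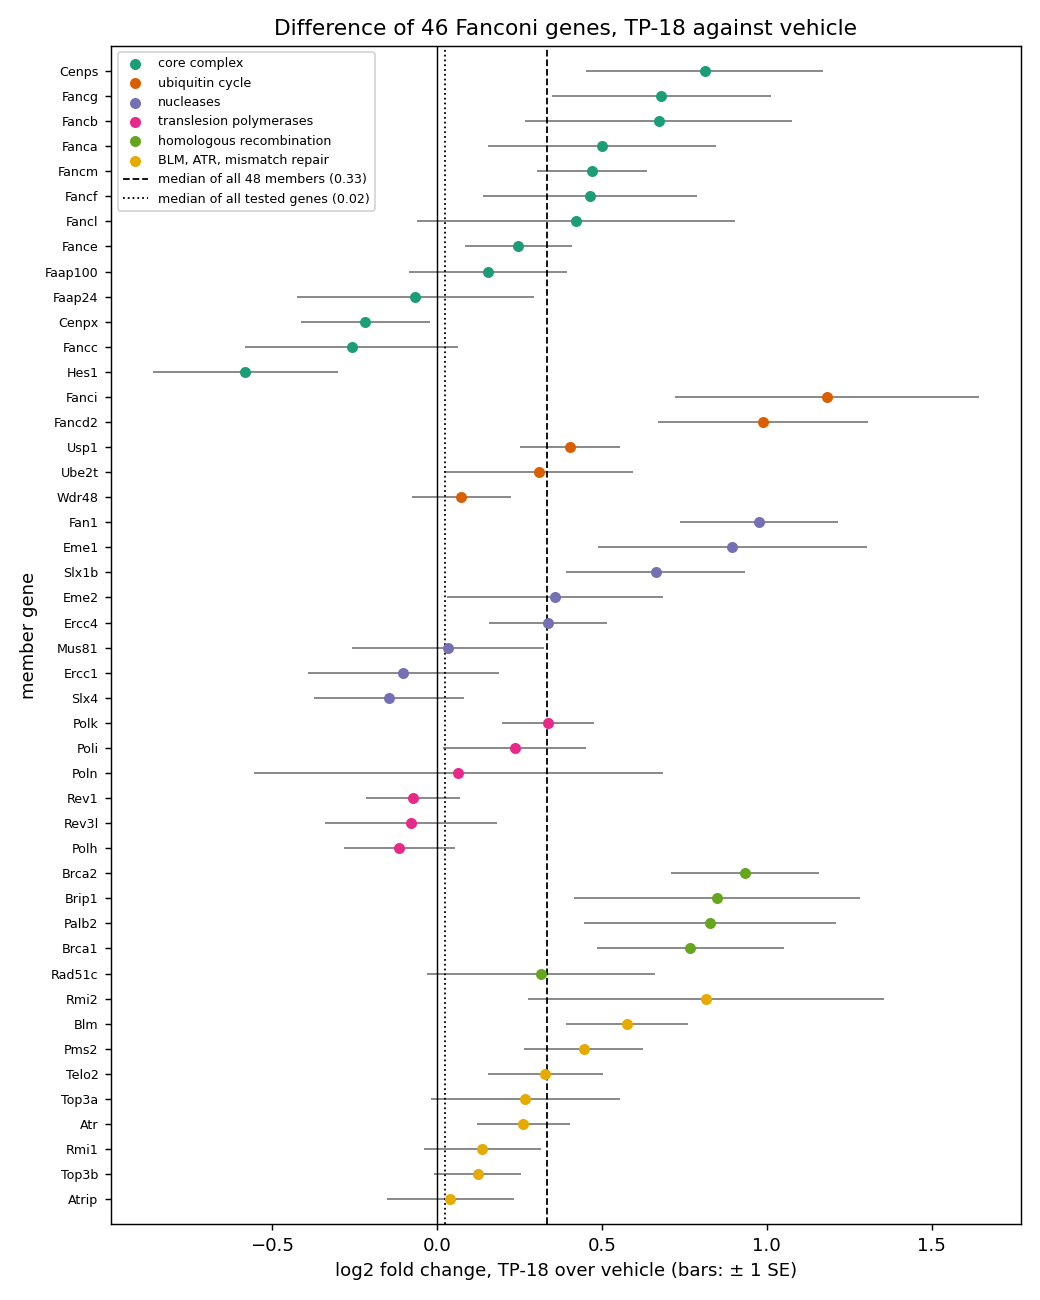
Log2 fold change of 46 of the 48 Fanconi genes (x axis, TP-18 over vehicle, ± 1 SE from edgeR), with genes on the y axis grouped and coloured by role; the dashed line is the median of the 48 genes and the dotted line that of all tested genes. The 5 homologous recombination genes drawn lie to the right of 0, and the translesion polymerases lie around 0, at -0.11 to 0.34.

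The members are spread over 17 chromosomes, with 8 each on chromosomes 7 and 11, and all 48 matched a protein-coding gene of GENCODE M21 on GRCm38 by Entrez identifier. Promoter sequence, from 250 bases before to 50 after a RefSeq start site on GRCm38.p6, was at hand for 39 members (44 promoters). Letters of sites for E2F, the transcription factor family of S phase genes, were searched on both strands as TTTCCCGC, TTTGGCGC, TTTGCCGC or TTTCGCGC. They occurred in 13.6% of the 44 member promoters (5 members: Brca2, Cenps, Fancg, Rad51c and Rmi1), against 2.26% of 32851 promoters of all genes. The median GC content was 59.8% in member promoters and 52.7% in all promoters. CCAAT, a common promoter element, occurred in 56.8% of member and 37.4% of all promoters. TTTGAA, the letters of an element found in late cell cycle genes, occurred in 4.55% of member promoters (Eme1 and Faap24) and 17.9% of all promoters. No match of one of these motifs shared bases with a match of another. A match describes the letters and does not show a bound site.

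The sequences of Brca2 (chr5:150522371-150522670, plus strand), Cenps (chr4:149137551-149137850, minus strand), Fancg (chr4:43010252-43010551, minus strand) and Fan1 (chr7:64374007-64374306, minus strand) are given 5′ to 3′ on the gene's strand, from RefSeq on GRCm38.p6, with E2F letters in capitals. Brca2 and Fan1 had the smallest p-values of the 48 genes, and Cenps and Fancg are core complex members with E2F letters. The E2F letters start 168 bases before the RefSeq start site in Brca2 and 52 before it in Fancg, and 26 after it in Cenps. In GENCODE M21 Fancg begins further upstream, at position 43010506, so that its match lies within the gene there. Fan1 holds none of the motifs searched.
Brca2: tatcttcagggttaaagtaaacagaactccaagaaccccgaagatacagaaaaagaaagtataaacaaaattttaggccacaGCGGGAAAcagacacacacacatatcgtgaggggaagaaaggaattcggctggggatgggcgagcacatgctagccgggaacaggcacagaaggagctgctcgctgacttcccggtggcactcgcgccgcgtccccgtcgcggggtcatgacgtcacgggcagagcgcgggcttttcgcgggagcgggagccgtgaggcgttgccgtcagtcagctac
Cenps: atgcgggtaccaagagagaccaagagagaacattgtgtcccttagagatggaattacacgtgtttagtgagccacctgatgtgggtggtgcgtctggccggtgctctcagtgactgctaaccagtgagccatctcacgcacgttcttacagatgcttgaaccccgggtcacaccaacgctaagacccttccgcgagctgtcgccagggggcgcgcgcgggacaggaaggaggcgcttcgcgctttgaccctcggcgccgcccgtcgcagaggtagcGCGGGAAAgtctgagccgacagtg
Fancg: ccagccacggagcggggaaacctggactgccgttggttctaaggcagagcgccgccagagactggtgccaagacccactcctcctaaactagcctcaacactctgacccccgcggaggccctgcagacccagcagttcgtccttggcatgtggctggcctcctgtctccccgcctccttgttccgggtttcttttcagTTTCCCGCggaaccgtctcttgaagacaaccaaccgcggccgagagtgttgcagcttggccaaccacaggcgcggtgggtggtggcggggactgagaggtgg
Fan1: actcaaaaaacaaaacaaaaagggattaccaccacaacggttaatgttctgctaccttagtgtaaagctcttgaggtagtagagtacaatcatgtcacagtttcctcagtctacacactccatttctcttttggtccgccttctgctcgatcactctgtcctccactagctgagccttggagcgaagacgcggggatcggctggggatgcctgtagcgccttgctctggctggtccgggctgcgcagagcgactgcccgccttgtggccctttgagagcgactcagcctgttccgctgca

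Levels between genes were compared as FPKM, which divides by gene length. The median of the 48 members' mean FPKM over all libraries was 3.07. Ercc1, the partner of the nuclease XPF in crosslink and nucleotide excision repair, stood apart at 99.5 FPKM. The next in order were Usp1 (13.7 FPKM), Ube2t (12.2) and Fance (12.2), and 41 members lay between 1 and 10 FPKM. The lowest were Fancc (0.934 FPKM), Poln (0.634) and Rmi2 (0.332). The highest library of a group was a median 1.40 times the lowest in TP-18 and 1.66 times the lowest in vehicle, over the 48 genes in CPM. This ratio was largest for Poln in both groups (3.84 in TP-18 and 3.22 in vehicle), followed in both groups by Fancl (2.78 in TP-18 and 2.68 in vehicle).

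**Figure D2:**
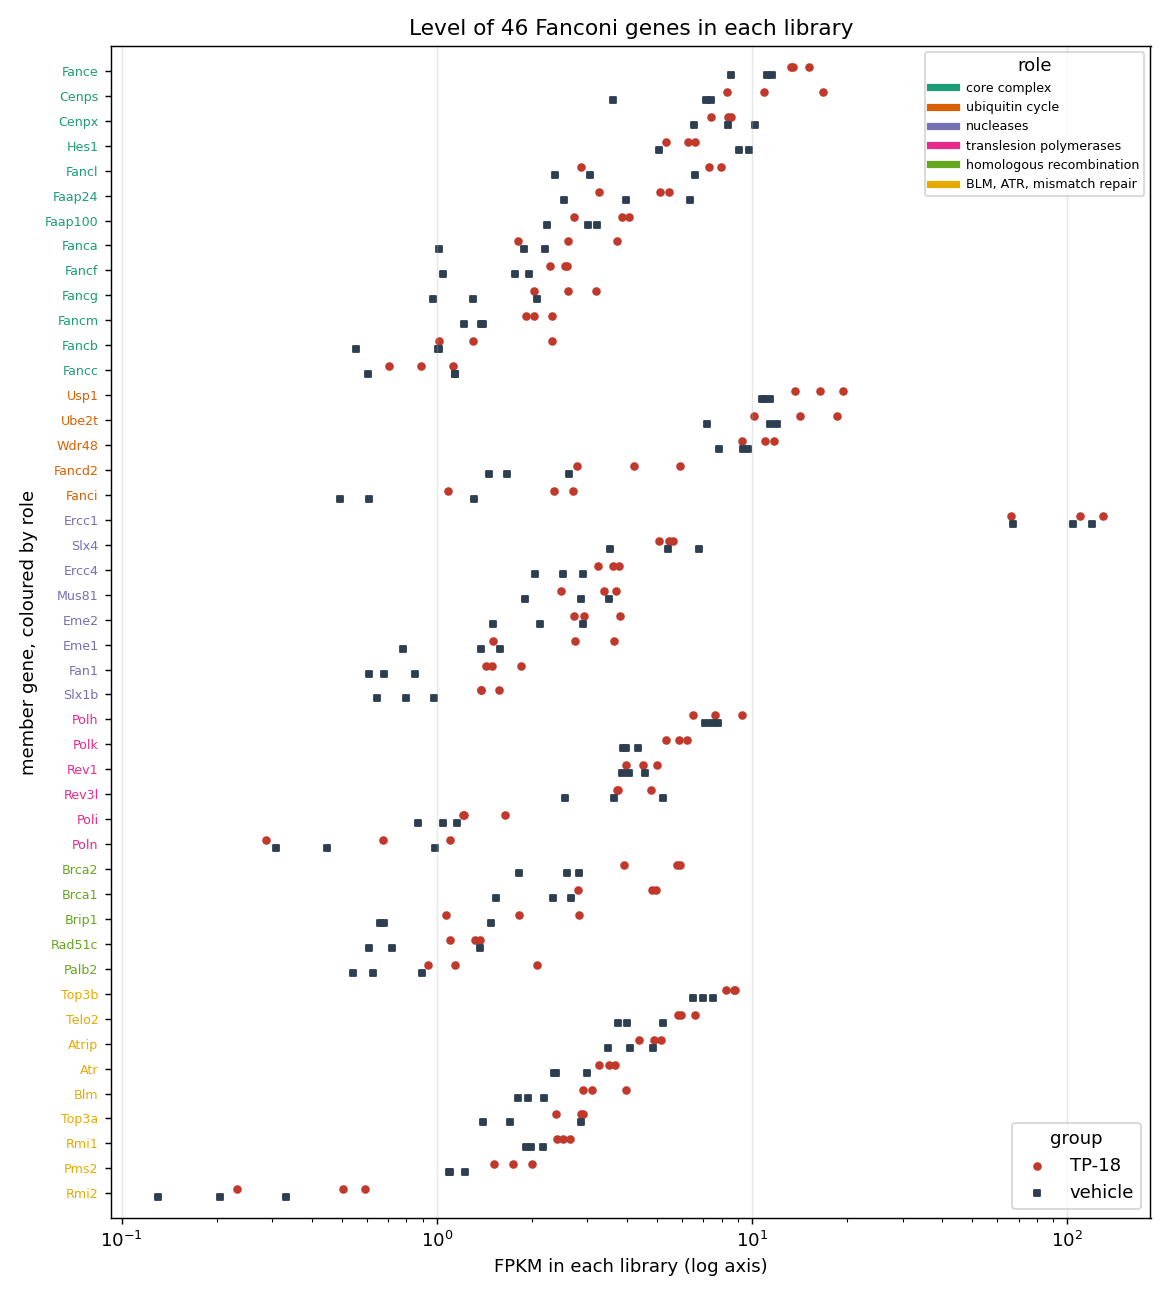
FPKM of 46 Fanconi genes in each library (x axis, log scale; red circles TP-18, dark squares vehicle), with genes on the y axis coloured by role and ordered by mean level within it. Ercc1 lies far to the right of the other genes, at a mean of 99.5 FPKM, in both groups; these FPKM values carry no TMM factor.

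The core complex and the subunits that bring it to DNA, listed together with Hes1, made up 13 members. Of these, 9 had positive and 4 negative log2 fold changes, with a median of 0.42. Fancm, the translocase that anchors the complex at the crosslink (chr12:65075603-65132058, plus strand), had 19.9, 16.4 and 17.3 CPM in TP-18 libraries, against 13.2, 11.8 and 13.6 CPM in vehicle libraries. Every TP-18 library was above every vehicle library, with a log2 fold change of 0.47 ± 0.17 (SE) and an edgeR adjusted p = 0.243. Fance, which links the complex to FANCD2, was the most abundant core gene per length, with 25.7, 28.6 and 25.1 CPM in TP-18 libraries, against 24.3, 24.04 and 18.7 CPM in vehicle libraries. Its groups did not overlap either, but TP-18 3 and vehicle 1 lay within 1 CPM of each other, and the log2 fold change was 0.25 ± 0.16 (edgeR adjusted p = 0.485). Cenps, a histone-fold protein that binds FANCM and also sits at centromeres, had 9.60, 7.27 and 14.6 CPM in TP-18 libraries, against 6.88, 7.36 and 3.64 CPM in vehicle libraries. TP-18 2 lay just below vehicle 2, so that the groups overlapped, and the log2 fold change was 0.81 ± 0.36 (edgeR adjusted p = 0.318).

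Fancf, an adaptor within the core, was also without overlap between groups, with a log2 fold change of 0.46 ± 0.33 (edgeR adjusted p = 0.510). Its level was low, 4.15, 3.64 and 4.04 CPM in TP-18 against 3.44, 1.89 and 3.24 CPM in vehicle libraries. The other core genes with positive values were Fancg (0.68), Fancb (0.67), Fanca (0.50), Fancl, the ubiquitin ligase of the complex (0.42), and Faap100 (0.15), all with overlapping groups. Fancl had 12.3, 4.78 and 13.3 CPM in TP-18 libraries, against 12.2, 5.85 and 4.57 CPM in vehicle libraries. TP-18 1, TP-18 3 and vehicle 1 formed a high set and the other 3 libraries a low one. In GENCODE M21, 13.7% of the exonic bases of Fancl are shared with Vrk2 on the opposite strand, and reads there cannot be told apart without strand, whose use in counting is not stated. Genes on the opposite strand also share 14.96% of the exonic bases of Fancf (Gas2), 16.4% of Fancc (Gm16133) and 10.5% of Fanca (Zfp276). The 4 negative values were those of Hes1, a Notch-induced repressor that the pathway term also holds (-0.58), Fancc (-0.26), Cenpx, the histone-fold partner of Cenps (-0.22), and Faap24 (-0.07). Hes1 had 10.8, 10.1 and 8.63 CPM in TP-18 libraries, against 9.10, 18.1 and 17.1 CPM in vehicle libraries, and vehicle 1 lay among the TP-18 libraries (edgeR adjusted p = 0.350).

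The ubiquitin cycle was positive in 5 of 5 genes (median log2 fold change 0.40), against 52.6% of all tested genes. Of the 5 genes, 3 were higher at an unadjusted p under 0.05, against 7.56% of all tested genes. Fanci and Fancd2, the paired proteins that receive the ubiquitin, had the highest log2 fold changes of the 48 members. Fanci (chr7:79391929-79450264, plus strand) had 13.7, 5.43 and 11.7 CPM in TP-18 libraries, against 7.25, 3.46 and 2.85 CPM in vehicle libraries. TP-18 2 lay between vehicle 1 and vehicle 2, and the log2 fold change was 1.18 ± 0.46 (edgeR adjusted p = 0.274), the only one above 1 among the members. Polg, on the opposite strand, shares 15.95% of the exonic bases of Fanci.

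Fancd2 (chr6:113531682-113597017, plus strand) had 22.2, 14.5 and 30.5 CPM in TP-18 libraries, against 15.1, 9.88 and 8.80 CPM in vehicle libraries. TP-18 2 was again the lowest TP-18 library and lay just below vehicle 1, with a log2 fold change of 0.99 ± 0.32 (edgeR adjusted p = 0.226). Usp1, the enzyme that removes the ubiquitin, had 55.8, 46.1 and 65.2 CPM in TP-18 libraries, against 42.5, 42.3 and 41.8 CPM in vehicle libraries. The vehicle libraries lay within 1 CPM of each other and all TP-18 libraries above them, with a smaller log2 fold change of 0.40 ± 0.15 (edgeR adjusted p = 0.262). Ube2t, the conjugating enzyme that works with FANCL, had 12.8, 9.12 and 16.6 CPM in TP-18 libraries, against 11.4, 12.3 and 7.48 CPM in vehicle libraries, with overlap and a log2 fold change of 0.31 ± 0.29 (edgeR adjusted p = 0.621). Wdr48, the activating partner of USP1, had a log2 fold change of 0.07 ± 0.15, and 14.9% of its exonic bases are shared with Gorasp1 on the opposite strand.

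The nucleases and their scaffolds were mixed, with 6 of 8 log2 fold changes positive and a median of 0.35. Fan1, a nuclease recruited by ubiquitinated FANCD2 (chr7:64346758-64374095, minus strand), had 8.95, 10.9 and 8.41 CPM in TP-18 libraries, against 4.00, 5.73 and 4.63 CPM in vehicle libraries. All TP-18 libraries were above all vehicle libraries, and TP-18 2 was the highest library here, unlike in Fancd2 and Fanci. The log2 fold change was 0.98 ± 0.24 (edgeR adjusted p = 0.165), and each library rested on few counts, 154 to 201 in TP-18 and 65 to 91 in vehicle. Slx1b, the catalytic partner of SLX4, had 5.50, 4.78 and 4.75 CPM in TP-18 libraries, against 3.75, 3.15 and 2.58 CPM in vehicle libraries. Its groups did not overlap, with a log2 fold change of 0.66 ± 0.27 (edgeR adjusted p = 0.292), and 10.2% of its exonic bases are shared with Bola2 on the opposite strand and 6.22% with Gm6939, a pseudogene on the same strand.

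Ercc1 (chr7:19344778-19356524, plus strand) had 155, 92.4 and 181 CPM in TP-18 libraries, against 161, 191 and 108 CPM in vehicle libraries. Each group held high and low libraries, TP-18 2 and vehicle 3 being the lowest, and the log2 fold change of -0.10 ± 0.29 was under its SE (edgeR adjusted p = 0.885). It turned positive without TP-18 2 (0.13), without vehicle 2 (0.076) and with library totals as scaling (0.072). Slx4, the scaffold that holds the nucleases, had 42.2, 44.8 and 45.9 CPM in TP-18 libraries, against 49.4, 33.2 and 64.5 CPM in vehicle libraries. The 3 TP-18 libraries lay inside the range of the vehicle libraries, with a log2 fold change of -0.15 ± 0.23 (edgeR adjusted p = 0.780) that was 0.033 with library totals and 0.089 without vehicle 3. Ercc4, which encodes XPF, had a log2 fold change of 0.34 ± 0.18, Eme1 of 0.90 ± 0.41, Eme2 of 0.36 ± 0.33 and their catalytic partner Mus81 of 0.03 ± 0.29. The groups overlapped in all 4. Of the exonic bases of Eme2, 28.2% are shared with Spsb3 on the opposite strand and 25.95% with Mapk8ip3 on the same strand, so its count is uncertain.

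The translesion polymerases, which insert bases opposite damaged template, had 3 positive and 3 negative values and a median of -0.0049. Polk, polymerase kappa, had 28.3, 25.6 and 29.6 CPM in TP-18 libraries, against 22.99, 21.6 and 21.5 CPM in vehicle libraries. It was the 1 polymerase without overlap, with a log2 fold change of 0.34 ± 0.14 (edgeR adjusted p = 0.295). Polh, polymerase eta, had 23.4, 19.7 and 28.01 CPM in TP-18 libraries, against 26.2, 25.9 and 24.9 CPM in vehicle libraries. The vehicle libraries lay close together and inside the TP-18 range, with a log2 fold change of -0.11 ± 0.17 (edgeR adjusted p = 0.765) that was 0.063 with library totals. Rev1, the scaffold of these polymerases, had 44.5, 55.2 and 49.4 CPM in TP-18 libraries, against 47.2, 51.3 and 58.4 CPM in vehicle libraries, and Rev3l, the catalytic subunit of polymerase zeta, had 40.3, 51.1 and 39.9 CPM in TP-18 libraries, against 43.3, 31.1 and 64.4 CPM in vehicle libraries. Both groups overlapped throughout in these genes, with log2 fold changes of -0.07 ± 0.14 for Rev1 and -0.08 ± 0.26 for Rev3l. Of the exonic bases of Rev1, 26.6% are shared with Eif5b on the opposite strand. Poli had a log2 fold change of 0.23 ± 0.22, and Poln, with 15 to 58 counts in TP-18 and 16 to 49 in vehicle libraries, one of 0.06 ± 0.62.

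The homologous recombination effectors had the highest median of the 6 roles, 0.83, with 6 of 6 positive. Brca2, which acts in the strand invasion step of recombination (chr5:150522630-150570329, plus strand), had 61.9, 41.4 and 62.4 CPM in TP-18 libraries, against 33.1, 21.96 and 31.6 CPM in vehicle libraries. TP-18 2, the lowest of its group, lay above vehicle 1, the highest of its group, and the log2 fold change was 0.93 ± 0.22 (edgeR adjusted p = 0.158). Over the 15 alternatives it ranged from 0.76 to 1.11 and the adjusted p from 0.0119 to 0.536.

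Brca1, which acts upstream of BRCA2 and PALB2 in recombination, had 32.7, 18.3 and 31.2 CPM in TP-18 libraries, against 19.2, 11.5 and 17.6 CPM in vehicle libraries. TP-18 1 and TP-18 3 stood above the other 4 libraries and TP-18 2 between vehicle 1 and vehicle 3, with a log2 fold change of 0.77 ± 0.28 (edgeR adjusted p = 0.255). Brip1, a helicase that binds BRCA1, had 12.02, 6.95 and 18.3 CPM in TP-18 libraries, against 10.7, 5.03 and 4.96 CPM in vehicle libraries, with TP-18 3 the highest library and a log2 fold change of 0.85 ± 0.43. Palb2, the bridge between BRCA1 and BRCA2, had a log2 fold change of 0.83 ± 0.38 and Rad51c of 0.32 ± 0.35, both with overlapping groups.

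The remaining 10 genes encode the BLM complex, the ATR kinase with its partners, and mismatch repair factors, and 10 of 10 were positive with a median of 0.26. Blm, the helicase mutated in human Bloom syndrome, had 17.6, 16.3 and 22.1 CPM in TP-18 libraries, against 13.5, 11.5 and 12.5 CPM in vehicle libraries. The groups did not overlap, with a log2 fold change of 0.58 ± 0.18 (edgeR adjusted p = 0.225). Pms2, a mismatch repair endonuclease subunit, had 13.3, 15.1 and 17.3 CPM in TP-18 libraries, against 10.5, 12.1 and 10.98 CPM in vehicle libraries, also without overlap and with a log2 fold change of 0.44 ± 0.18 (edgeR adjusted p = 0.288).

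Top3b, a topoisomerase, and Telo2, a factor that stabilises ATR and related kinases, were the most abundant of the 10 per length, at 7.81 and 5.22 FPKM. Top3b had 27.98, 29.7 and 29.4 CPM in TP-18 libraries, against 27.97, 26.7 and 25.2 CPM in vehicle libraries. Its groups were separated by the narrow gap between TP-18 1 and vehicle 1, with a log2 fold change of 0.12 ± 0.13 (edgeR adjusted p = 0.668). Telo2 had 20.1, 21.98 and 19.4 CPM in TP-18 libraries, against 19.3, 15.2 and 14.4 CPM in vehicle libraries, where TP-18 3 lay just above vehicle 1, and a log2 fold change of 0.33 ± 0.17 (edgeR adjusted p = 0.392). Atr had a log2 fold change of 0.26 ± 0.14, its partner Atrip of 0.04 ± 0.19, and the BLM complex genes Top3a of 0.27 ± 0.29, Rmi1 of 0.14 ± 0.18 and Rmi2 of 0.81 ± 0.54. The groups overlapped in these 5 genes. Trex1, on the same strand, shares 16.04% of the exonic bases of Atrip, so the count of Atrip is uncertain.

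**Figure D3:**
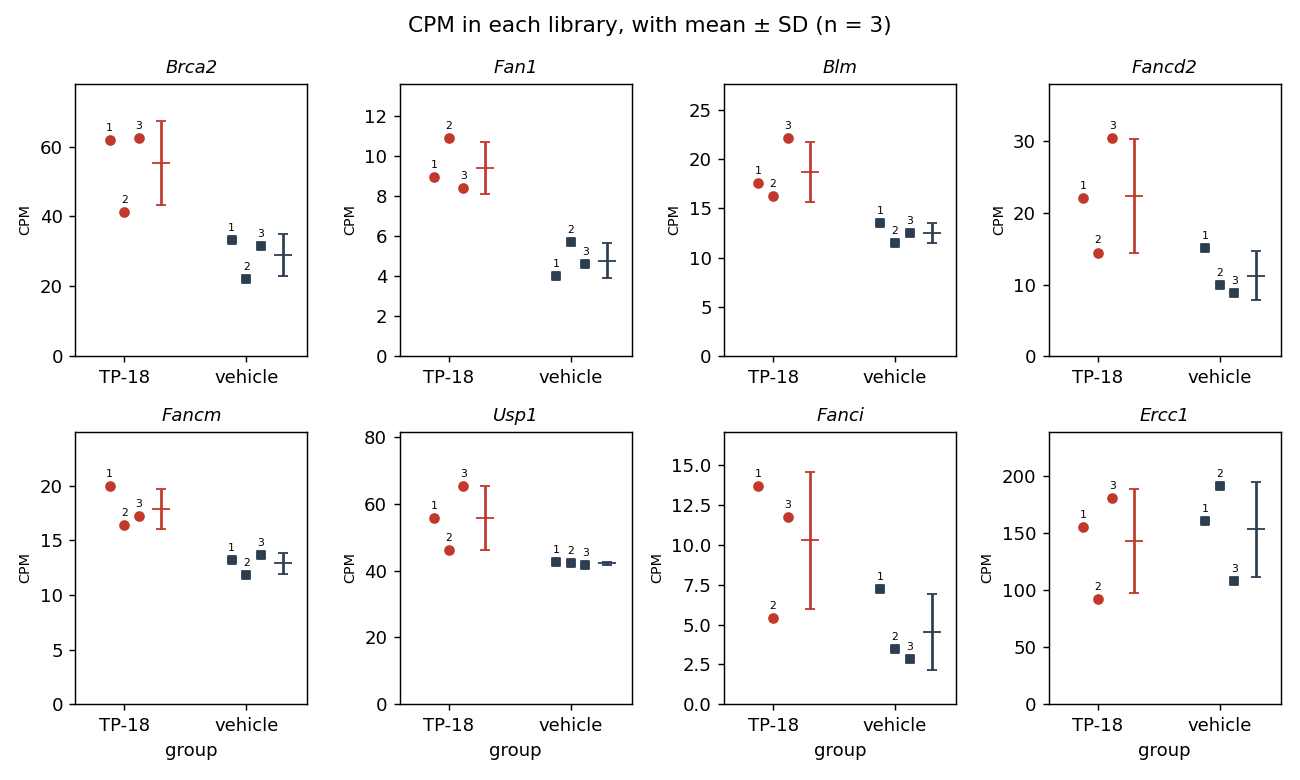
CPM in each library (y axis from 0; numbers are replicate numbers) for 8 Fanconi genes, TP-18 left and vehicle right in each panel, with the mean ± SD (n = 3) beside the points. Brca2, Fan1, Blm, Fancm and Usp1 show no overlap between groups, whereas in Fancd2 and Fanci TP-18 2 falls within reach of vehicle 1, and Ercc1 overlaps fully.

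The members differed between libraries of the same group in a shared way. TP-18 3 was the highest of the 6 libraries in 21 of the 48 genes, TP-18 1 in 7 and TP-18 2 in 7, against vehicle 1 in 5, vehicle 2 in 2 and vehicle 3 in 6. Among TP-18 libraries TP-18 2 was the lowest in 28 genes, and among vehicle libraries vehicle 1 was the highest in 31. No such counts were made over all genes. Across all tested genes, deviations of log2 CPM from the group mean correlated at 0.481 between TP-18 3 and vehicle 1. Between TP-18 2 and vehicle 1 they correlated at -0.572, so that differences between libraries reached beyond the members. Each gene's log2 CPM was centred on its own mean over the 6 libraries and averaged over the 48 members; this centred mean was 0.22, -0.02 and 0.35 in TP-18 libraries, against 0.03, -0.28 and -0.30 in vehicle libraries. By it TP-18 2 lay just below vehicle 1, and the groups overlapped.

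The order differed by role. For the recombination effectors the centred mean was 0.42, -0.07 and 0.77 in TP-18 libraries, against 0.06, -0.60 and -0.58 in vehicle libraries, and for the ubiquitin cycle it was 0.43, -0.16 and 0.61 in TP-18 libraries, against 0.00, -0.35 and -0.52 in vehicle libraries. In both, TP-18 1 and TP-18 3 were high, vehicle 2 and vehicle 3 low, and TP-18 2 under vehicle 1. For the BLM, ATR and mismatch repair genes it was 0.17, 0.04 and 0.28 in TP-18 libraries, against -0.02, -0.28 and -0.20 in vehicle libraries, and for the nucleases 0.29, 0.01 and 0.28 in TP-18 libraries, against -0.02, -0.23 and -0.33 in vehicle libraries. In both of these all TP-18 libraries lay above all vehicle libraries. For the core complex list, Hes1 included, it was 0.16, -0.13 and 0.38 in TP-18 libraries, against 0.13, -0.17 and -0.37 in vehicle libraries. Vehicle 1 lay above TP-18 2. For the translesion polymerases it was -0.00085, 0.23 and -0.13 in TP-18 libraries, against -0.06, -0.23 and 0.20 in vehicle libraries, where TP-18 2 and vehicle 3 were the highest.

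**Figure D4:**
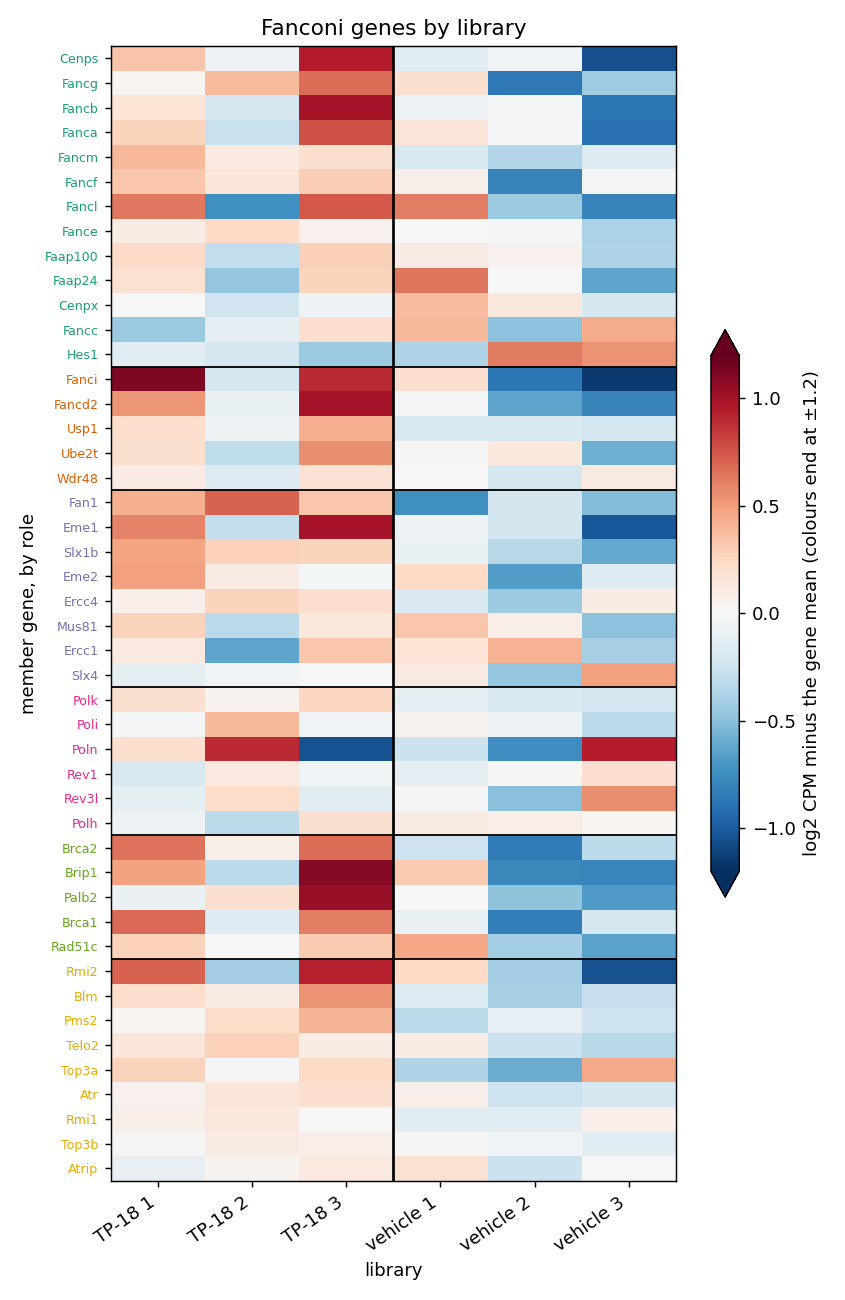
Log2 CPM centred on each gene's mean over 6 libraries (colour) for 46 Fanconi genes (rows, grouped by role) in each library (columns, TP-18 left of the line and vehicle right). Red is concentrated in TP-18 1 and TP-18 3 and blue in vehicle 2 and vehicle 3, most clearly in the ubiquitin cycle and recombination genes.

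The mean over markers of proliferating cells ordered the 6 libraries as the mean over the Fanconi genes did, although single genes of dividing cells differed from that order. All 14 markers of proliferating cells were positive (median log2 fold change 0.53). In 2 of them every TP-18 library was above every vehicle library, against 11.6% of all tested genes. Of the 14 markers 9 were higher at an unadjusted p under 0.05, against 7.56% of all tested genes, and 0 passed the threshold. Their centred mean was 0.42, -0.14 and 0.67 in TP-18 libraries, against 0.00, -0.26 and -0.69 in vehicle libraries, and their summed level was 1579, 1010.2 and 1861 CPM in TP-18 libraries, against 1161, 841 and 745 CPM in vehicle libraries. Mki67, a marker of proliferating cells, had 447, 246 and 528 CPM in TP-18 libraries, against 331, 127 and 232 CPM in vehicle libraries. Top2a, the mitotic topoisomerase, had 289, 146 and 333 CPM in TP-18 libraries, against 187, 104 and 82.8 CPM in vehicle libraries. Pcna, the sliding clamp of replication, had 284, 212 and 293 CPM in TP-18 libraries, against 264, 267 and 207 CPM in vehicle libraries. TP-18 1 and TP-18 3 were the highest of the 6 libraries in each of these 3 genes, and none passed (edgeR adjusted p = 0.339 for Mki67, 0.255 for Top2a and 0.817 for Pcna). The part of dividing cells in the Fanconi gene values was not tested. In RNA from a cell population, a change in the number of dividing cells and in the RNA per cell cannot be told apart.

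Markers of fibroblasts and pericytes were also higher in their means with TP-18, in 8 of 8 genes (median log2 fold change 0.73). Of these markers 6 were higher at an unadjusted p under 0.05, against 7.56% of all tested genes. In 5 every TP-18 library was above every vehicle library, against 11.6% of all tested genes. Of the 8 markers 0 passed the threshold (smallest edgeR adjusted p = 0.107, for the collagen gene Col1a1). Their sums were 1847, 1614 and 1483 CPM in TP-18 libraries, against 1199.5, 888 and 743 CPM in vehicle libraries, so that every TP-18 library lay above every vehicle library. Their centred mean was 0.61, 0.66 and 0.22 in TP-18 libraries, against -0.30, -0.30 and -0.90 in vehicle libraries, with TP-18 2 the highest library, which was the lowest of its group for the Fanconi genes. All 7 endothelial markers had positive log2 fold changes (median 0.78), against 52.6% of all tested genes. In 1 of the 7 every TP-18 library was above every vehicle library, against 11.6% of all tested genes. Of the 7 endothelial markers 0 passed the threshold. The part of these cells in the Fanconi gene values was not tested.

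The 7 T and NK cell markers, at low levels, were lowest in TP-18 2 and vehicle 2, with sums of 11.2, 3.36 and 16.1 CPM in TP-18 libraries, against 17.8, 3.27 and 11.2 CPM in vehicle libraries. Their part in the result was not tested. The macrophage markers followed another order, with sums of 5289, 4264 and 6440.2 CPM in TP-18 libraries, against 6978, 3683 and 7948 CPM in vehicle libraries.

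The 35 genes with the DNA replication term had 32 positive log2 fold changes and a median of 0.41, with 0 past the threshold. Of these genes 8 were higher at an unadjusted p under 0.05, against 7.56% of all tested genes, and 0 were lower. In 2 of the 35 every TP-18 library was above every vehicle library, against 11.6% of all tested genes. The centred mean of the 35 genes was 0.32, -0.25 and 0.46 in TP-18 libraries, against 0.01, -0.13 and -0.41 in vehicle libraries. By it TP-18 2 lay below vehicle 1 and vehicle 2. Of the 3 genes shared with the Fanconi term, Rpa2 had 25.1, 16.98 and 31.6 CPM in TP-18 libraries, against 17.5, 15.2 and 14.4 CPM in vehicle libraries (log2 fold change 0.64 ± 0.24), Rpa1 a log2 fold change of 0.17 ± 0.13 and Rpa3 one of 0.13 ± 0.30. A list of 22 S phase and replication genes had 20 positive values and a median of 0.58. Its lowest p belonged to E2f7, an E2F family repressor of S phase genes, with 48.4, 35.1 and 49.8 CPM in TP-18 libraries, against 24.1, 20.6 and 21.04 CPM in vehicle libraries (log2 fold change 1.02 ± 0.18, edgeR adjusted p = 0.0982), followed by E2f1, an activator of the family (0.59 ± 0.20, edgeR adjusted p = 0.238). Both had all TP-18 above all vehicle libraries, which held for 3 of the 22 genes, against 11.6% of all tested genes. In the proliferation list Plk1 (0.94 ± 0.30) and Foxm1 (0.41 ± 0.14), regulators of mitosis, had the lowest p.

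**Figure D5:**
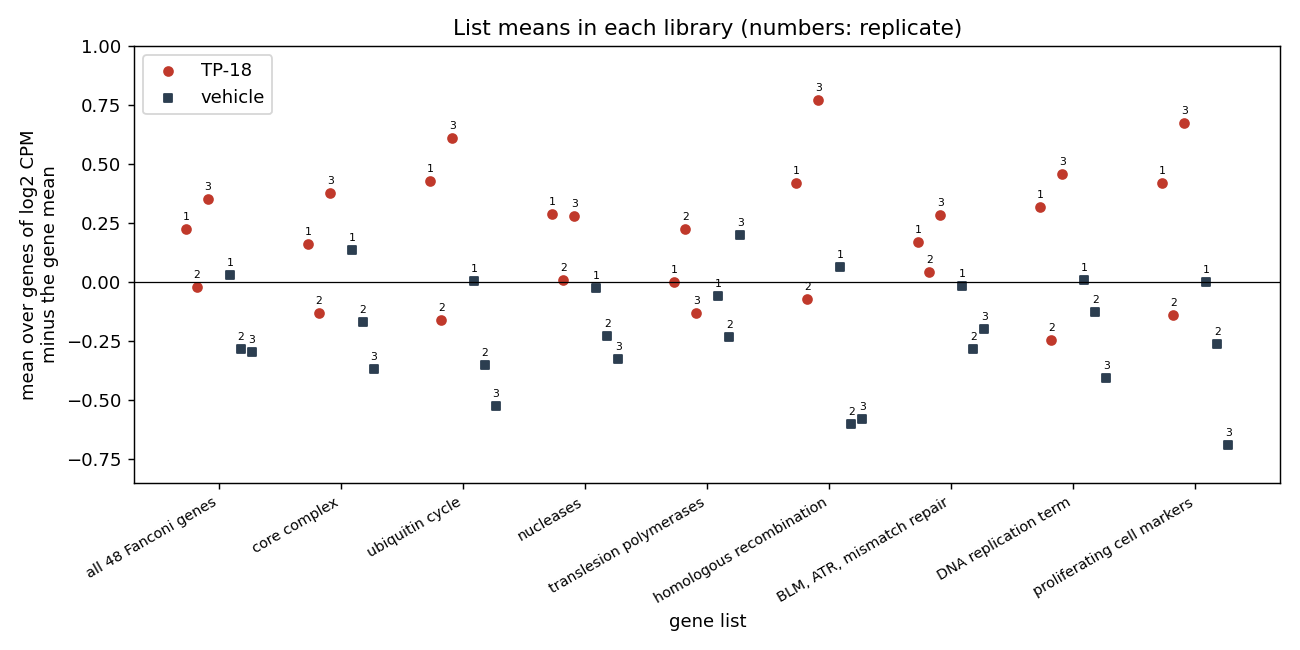
Mean over the genes of a list of the centred log2 CPM (y axis; each gene centred on its own mean) in each library (points; numbers are replicate numbers), for all 48 Fanconi genes, the 6 roles, the DNA replication term and the proliferation markers (x axis; red circles TP-18 left, dark squares vehicle right). TP-18 1 and TP-18 3 are the highest for all 48 genes, at 0.22 and 0.35, and TP-18 2 and vehicle 1 lie side by side.

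Other repair genes were read from separate lists, all with 0 genes past the threshold. Of 9 crosslink repair genes outside the pathway term, 7 were positive (median 0.21). Dclre1a, a nuclease that digests past an unhooked crosslink, had 26.7, 26.4 and 27.7 CPM in TP-18 libraries, against 19.2, 16.6 and 18.9 CPM in vehicle libraries, without overlap (log2 fold change 0.56 ± 0.14, edgeR adjusted p = 0.176). Abraxas1, a scaffold of a BRCA1 complex, had 0.50 ± 0.20 on the log2 scale, also without overlap. In 3 of the 9 every TP-18 library was above every vehicle library, and in 1 below (11.6% and 11.7% of all tested genes). The 1 below was Uimc1 (log2 fold change -0.29 ± 0.14). Of 18 recombination genes outside the term, 14 were positive (median 0.51). At an unadjusted p under 0.05, 4 were higher and 3 lower (7.56% and 8.7% of all tested genes). In 6 every TP-18 library was above every vehicle library, and in 3 below (11.6% and 11.7% of all tested genes). Rad50, of the complex that senses broken ends, had 47.8, 38.3 and 49.5 CPM in TP-18 libraries, against 33.3, 26.1 and 29.4 CPM in vehicle libraries (log2 fold change 0.61 ± 0.16, edgeR adjusted p = 0.191), whereas Rad52, a strand annealing protein, had 10.2, 13.6 and 11.1 CPM in TP-18 libraries, against 18.5, 23.2 and 16.6 CPM in vehicle libraries (log2 fold change -0.73 ± 0.20, edgeR adjusted p = 0.195). Both were without overlap, in opposite directions. Nbn (log2 fold change -0.33 ± 0.14) and Rbbp8 (-0.40 ± 0.16) were also lower without overlap.

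Of 15 checkpoint and p53 genes 11 were positive (median 0.26), with the lowest p for Mdm2, the ubiquitin ligase of p53, at 289.8, 294 and 281 CPM in TP-18 against 339.6, 484 and 536 CPM in vehicle libraries (log2 fold change -0.65 ± 0.18), and for Hus1, a subunit of the checkpoint clamp (0.62 ± 0.18). In 3 of the 15 every TP-18 library was above every vehicle library, and in 2 below (11.6% and 11.7% of all tested genes). The 2 below were Mdm2 and Cdkn1a, a cyclin-dependent kinase inhibitor (log2 fold change -0.47 ± 0.19). All 5 mismatch repair genes were positive (median 0.33), among them Mlh3 (0.52 ± 0.25) and Msh6 (0.33 ± 0.18). Nucleotide excision repair genes did not share this sign: 3 of 11 were positive, with a median of -0.09, and Ercc6 (-0.46 ± 0.18) and Rad23b (-0.20 ± 0.13) had the lowest p. Among 5 genes of aldehyde detoxification, which removes endogenous crosslinking agents, 1 was positive (median -0.15), with Esd at -0.27 ± 0.18 and Adh5, the formaldehyde dehydrogenase, at -0.15 ± 0.14.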

How the data were processed

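The authors deposited raw read counts per gene and, in a second table, FPKM values for the same 17191 genes. The submitters' processing notes list fastp, HISAT2, HTSeq and the GRCm38 build, without versions; the annotation release and strand setting are not given in the sources used here. Deposited FPKM values equal count over library total over 1 length per gene, checked on every gene.

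Counts were tested with edgeR 4.0.16 (R 4.3.3): filterByExpr defaults (minimum count 10, minimum total 15; 12721 genes, all 48 members among them), TMM factors, quasi-likelihood test of TP-18 against vehicle without covariates, two-sided, Benjamini-Hochberg over all tested genes, threshold 0.05. SE is the absolute log2 fold change over the square root of F. The test was checked on simulated counts. Libraries of a group differed by more than sampling noise (chi-square per degree of freedom 28.2 to 81.9). Alternatives used RLE factors, library totals, other filters, DESeq2 1.42.0, limma 3.58.1 (voom, and log2 of FPKM plus 1 or 0.1), a replicate block and each library left out. No batch is labelled.

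Members, roles and lists were chosen with earlier results of these data known. Genes given in full were the 12 members of smallest p and the 2 of highest FPKM per role, and from other lists the 2 of smallest p; members given with values in every library beyond that rule (Fancf, Fancl, Hes1, Rev1, Rev3l, Brip1) were chosen after their values were seen. Of the 48 members, 2 are not reported singly here; they are part of the counts and medians. Figures were drawn with matplotlib 3.10.9.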

Additional observations from a re-analysis of the deposited data

How the results depend on the processing

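Over the 15 alternatives the count of Fanconi members with a positive log2 fold change was 37 to 45 and their median 0.25 to 0.51. No member passed the threshold under any of them except DESeq2, which called 2, Brca2 and Fan1; 249 genes to which DESeq2 gave no adjusted p were left out of its counts. None of the 19 named members passed with the main settings, so that to keep the side of the threshold meant to stay over it. Of 285 values of these 19 members under the alternatives, 270 kept their sign and side of the threshold. The 13 that changed sign belonged to 3 genes whose log2 fold changes were under their SE. Ercc1 was 0.072 with library totals and 0.058 with either limma fit on FPKM, and ran from -0.31 to 0.13 with 1 library left out (positive without TP-18 2 or vehicle 2). Slx4 was 0.033 with library totals, 0.062 with log2(FPKM + 1) and 0.080 with log2(FPKM + 0.1), and ran from -0.38 to 0.089 with 1 library left out (positive without vehicle 3). Polh was 0.063 with library totals, 0.044 and 0.048 with the same FPKM fits, and ran from -0.25 to 0.0021 with 1 library left out (positive without TP-18 2). FPKM carry no TMM factor, as library totals do not.

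Over all genes 3 were higher and 11 lower with TP-18 by edgeR. Library totals gave 1 lower, no filter gave 7 higher and 20 lower, DESeq2 gave 187 higher and 379 lower, and each limma fit on FPKM gave 1 higher and 1 lower. Without 1 library the counts were 0 to 3 higher and 0 to 5 lower. With the replicate number as a block 3 were higher and 0 lower, with 0 Fanconi members called, 7 at an unadjusted p under 0.05 (all higher, 14.6%, against 7.48% of all genes) and a member median of 0.34. Deviations of same-numbered libraries correlated at 0.141, 0.386 and -0.151 across genes, so the numbers were not read as pairs. The causes of these changes were not tested.

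Depth was lowest for Rmi2 (8 to 38 counts a library) and Poln (15 to 58). With 3 libraries a group, a p over the threshold does not show that levels were equal.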
